A study of Homo sapiens with 9 samples.

Results

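Chromosome 20 held 2082 of the 55160 regions in the ATAC list named for shLOXL2 cells. They were all of the ATAC peaks on that chromosome, which was singled out because it carried more peaks per Mb than any other autosome. Its density of 33.2 peaks per Mb and its rank are therefore descriptions of the choice. Chromosome 19, next in order, had 26.5 peaks per Mb, followed by chromosome 17 with 25.9 and chromosome 14 with 24.1.

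All samples were MDA-MB-231, a human cell line derived from a triple-negative breast tumour. The ATAC list was named for shLOXL2, cells infected with a short hairpin RNA that depletes LOXL2, and the labels of the shControl ATAC library cited the same list. H3K4ox ChIP-seq had 2 replicates of MDA-MB-231 cells with no depletion named, and no label says whether these were separate cultures. The series also held 1 histone H3 ChIP-seq library and 2 shControl and 2 shLOXL2 RNA-seq libraries, whose values were not used here. With 1 ATAC list, peak density could not be compared between shLOXL2 and shControl, and no test was made. Whether shControl reads served as the background of that list is not known. The intervals given are 95% exact Poisson or exact Clopper-Pearson intervals, which cover counting error only, since neighbouring peaks and windows are not replicates.

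ATAC-seq uses a transposase that inserts sequencing adapters where DNA is not wrapped tightly, so stacked fragments mark open promoters, enhancers and other exposed sites. H3K4ox denotes the oxidised form of lysine 4 on the tail of histone H3, and LOXL2, a lysyl oxidase-like enzyme, is held to carry out that oxidation. Chromosome 20 is a small chromosome, and extra copies of its long arm are a known feature of breast and colorectal tumours. The number of fragments from a region depends on its openness and on how many copies of it the cells carry, so a list of peaks alone does not measure either. Copy number was not tested here.

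The arms were taken as the 2 sides of the longest stretch without an ATAC peak. On chromosome 20 that stretch ran over 3.20 Mb, at chr20:26231749-29434217 (GRCh37), where the centromere lies. The short arm carried 664 peaks over 26.0 Mb and the long arm 1418 peaks over 33.5 Mb. No gene was placed among these positions, since no GRCh37 annotation was used here.

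The higher density lay mostly on the long arm. It held 42.4 peaks per Mb (interval 40.2 to 44.6), against 25.5 on the short arm (23.6 to 27.6) and 18.8 over the other 21 autosomes. Relative to those autosomes the long arm was 2.25 times as dense (2.13 to 2.37) and the short arm 1.36 times (1.26 to 1.47). The long arm was 1.66 times as dense as the short arm (1.51 to 1.82). In all, 3.89% of autosomal peaks fell on the 2.24% of the autosomal span that chromosome 20 makes up. Among 43 chromosome sides of at least 10 Mb, the long arm ranked 1 in density and the short arm ranked 8. The side next to the long arm was the one before the peak-free stretch of chromosome 6, with 32.7 peaks per Mb.

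**Figure D1:**
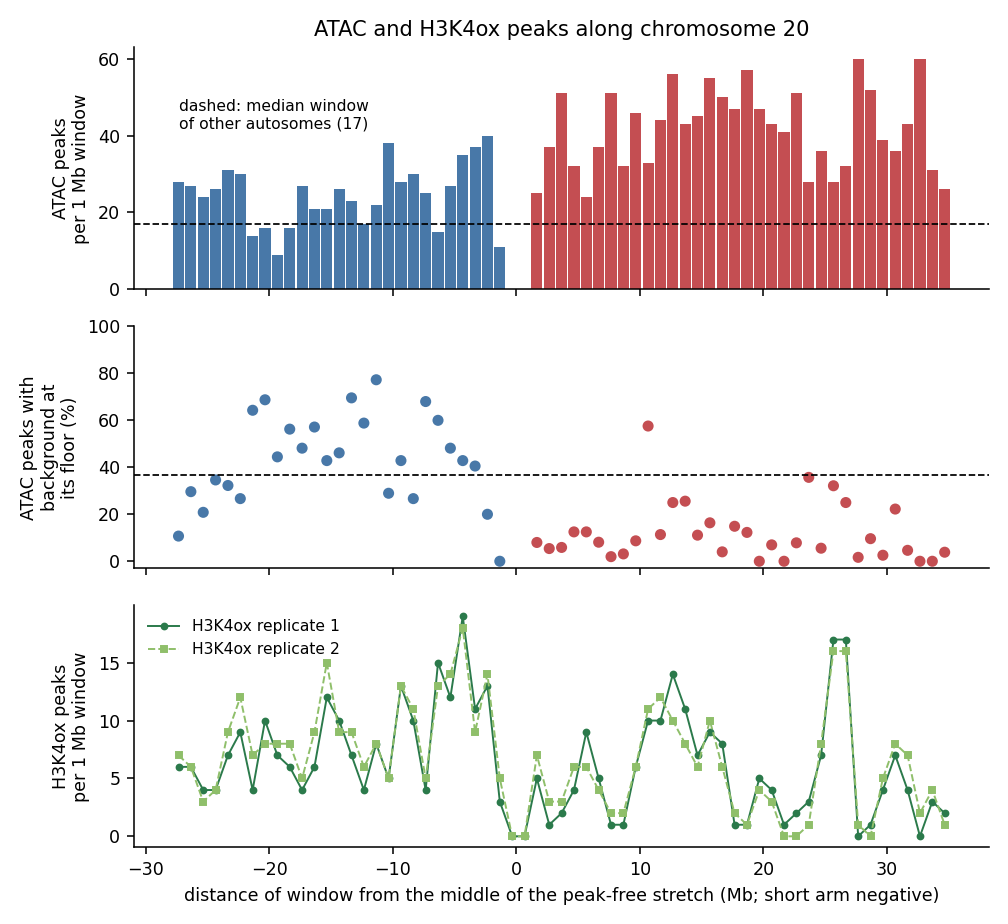
Peaks along chromosome 20 in windows of 1 Mb, placed by their distance in Mb from the middle of the peak-free stretch, with short arm windows in blue and long arm windows in red. The top panel counts ATAC peaks, with the median window of other autosomes (17) dashed; the middle panel gives the percent of ATAC peaks whose background is at its floor, with the value of other autosomes (36.8%) dashed; the bottom panel counts H3K4ox peaks of each replicate. All 34 long arm windows stand above the dashed line of the top panel, and 20 of 27 short arm windows do.

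Windows of 1 Mb show how the peaks were spread along each arm. The sparsest long arm window, at chr20:33000001-34000000, held 24 peaks, and the densest held 60. All 34 long arm windows exceeded 17 peaks, the median window of the other autosomes, in a single run from the peak-free stretch to the end of the arm. On the short arm 20 of 27 windows did so, with counts from 9 to 40 and a longest run of 6 windows. The last short arm window, with 11 peaks, and the first long arm window, with 25, lie partly within the peak-free stretch. Their counts were not scaled for this. Over other autosomes 48.3% of 2746 windows exceeded that median.

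The long arm was raised at every percentile, and most at the sparse end. Its windows held 28, 43 and 55.7 peaks at their 10th, 50th and 90th percentiles. The same percentiles were 7, 17 and 33 on the other autosomes, so the ratio fell from 4 at the 10th percentile to 2.53 at the median and 1.69 at the 90th. On the short arm they were 14.6, 26 and 35.8, with ratios of 2.09, 1.53 and 1.08. The curves of the long arm and of other autosomes are thus close to parallel in peaks per window rather than in ratio. The densest windows anywhere were not on chromosome 20, since a window of another autosome reached 82 peaks.

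**Figure D2:**
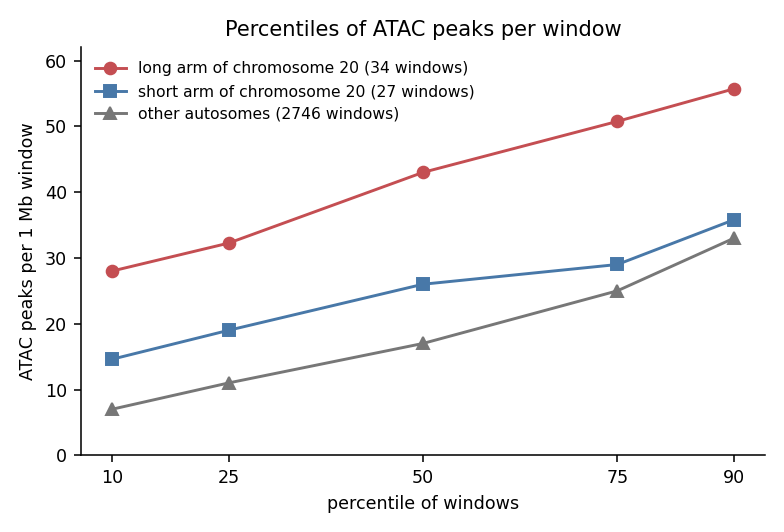
ATAC peaks per 1 Mb window (vertical axis) at the 10th, 25th, 50th, 75th and 90th percentiles of windows (horizontal axis) for the long arm, the short arm and all other autosomes. The long arm line lies above both others throughout, and the short arm line meets that of other autosomes most closely at the 90th percentile, where they stand at 35.8 and 33 peaks.

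The densest windows of chromosome 20 held no larger a share of its peaks than those of the other autosomes did. The densest 10% of its windows, rounded up to 7 of 63, held 391 peaks, or 18.8%, against 21.5% in the densest 275 of 2746 windows on the other autosomes. Within the long arm the densest 4 of 34 windows held 16.4%, and within the short arm the densest 3 of 27 held 17.3%. Rounding up makes the fraction of windows slightly larger on chromosome 20 and its arms than elsewhere. The other autosomes also pool chromosomes of 9.90 to 26.5 peaks per Mb, which by itself raises the share of their densest windows. With the densest 10% of windows left out of every autosome, the density ratio was 1.83 for chromosome 20 and 2.34 for the long arm. A fold enrichment of at least 5 was reached by 85 peaks of chromosome 20 (4.08%), against 4.46% over all autosomes. Of those 85 the densest 7 windows held 32.9%, against 35.2% in the densest 275 windows on the other autosomes. The median window held 1 such peak in both, and at counts this low the shares can hardly show clusters. Window counts on the long arm had a variance of 2.63 times their mean and a coefficient of variation of 0.251. That coefficient was the second lowest of the 43 sides, after 0.244 on the side of chromosome 22 that follows its longest peak-free stretch. By variance over mean the long arm ranked only 10 from the lowest. The coefficient tends to fall as the mean count rises, and the long arm was the densest side. The short arm had a variance of 2.65 times its mean, while chromosome 20 as a whole, with both arms and 2 empty windows pooled, had 5.85, and other autosomes had 5.96.

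Counts along the long arm varied by more than Poisson sampling gives, with a variance of 2.63 times their mean. The variance exceeded the mean on all 43 sides, however, the lowest being 1.24 times. Such scatter does not show whether the rise itself was even, which was not tested. The 12 long arm windows nearest the centromere averaged 39.0 peaks, the 11 windows at chr20:41000001-52000000 averaged 46.1, and the last 11 averaged 40.3. Each of these stretches spanned a wide range, from 24 to 56, from 28 to 57 and from 26 to 60 peaks. Averages on the short arm were 22.8, 23.4 and 27.6 peaks per window, from its tip to the centromere. On both arms the stretch nearest the centromere includes a window cut by the peak-free stretch.

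The long arm's 2 densest windows, at chr20:55000001-56000000 and chr20:60000001-61000000, held 60 peaks each. The window at chr20:46000001-47000000 held 57, that at chr20:40000001-41000000 held 56 and that at chr20:43000001-44000000 held 55. All 10 of the densest windows, with at least 50 peaks each, lay on the long arm. Among them only those at chr20:43000001-45000000 and at chr20:55000001-57000000 were neighbours. All 5 of the sparsest windows with a peak lay on the short arm. The lowest of them was chr20:8000001-9000000 with 9 peaks, between windows of 16 peaks each. Another, chr20:26000001-27000000 with 11 peaks, lies mostly within the peak-free stretch, so its low count comes from only part of a window.

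Spacing on a finer scale gave the same order. Neighbouring peaks lay a median of 15.0 kb apart on the long arm, 24.9 kb on the short arm and 29.3 kb on the other autosomes. Bins of 100 kb without a peak made up 1.49% of the long arm, 9.20% of the short arm and 21.5% of the other autosomes. The fullest bin of chromosome 20 held 14 peaks, against 24 elsewhere. The ratio of the median to the mean gap, which falls as peaks bunch together, was 0.635 on the long arm, 0.637 on the short arm and 0.573 elsewhere. Of the gaps on the long arm, 8.05% were 1 kb or less, against 4.32% on the other autosomes, and merging such neighbours left the long arm ratio at 2.16.

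By median and mean, the peaks themselves were about as tall and as long as those elsewhere. Pileup, the number of fragments stacked at a peak's summit, had a median of 4 on both arms and on the other autosomes, and most peaks were thus shallow. Its mean was 4.60 on the long arm, 4.46 on the short arm and 4.57 elsewhere, which put chromosome 20 at rank 11 of 22 autosomes. A pileup of at least 5 was reached by 45.5% of long arm peaks, 40.1% of short arm peaks and 42.1% of those elsewhere. Median length was 55 bp in every set, the shortest length in the list, and 55.04% of chromosome 20 peaks had it. That share was 52.6% on the long arm, 60.2% on the short arm and 56.8% elsewhere. Mean length was 69.7 bp on the long arm, 68.0 bp on the short arm and 68.8 bp elsewhere. Depth of the ATAC library is unknown, since the list gives no read total.

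Density was raised among peaks of every height on the long arm. The ratio to other autosomes was 1.95 for pileup 3, 2.19 for pileup 4, 2.44 for pileup 5 and 2.57 for pileup 6 or 7. For the 32 long arm peaks of pileup 8 or more it was 1.78, with an interval of 1.21 to 2.53 that covers the other values except 2.57. On the short arm the ratio was 1.41 at pileup 3 and 1.15 at pileup 8 or more, with an interval for the latter of 0.654 to 1.87. By length, the long arm ratios were 2.09 for peaks of the shortest length and 2.43 for peaks of at least 100 bp.

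**Figure D3:**
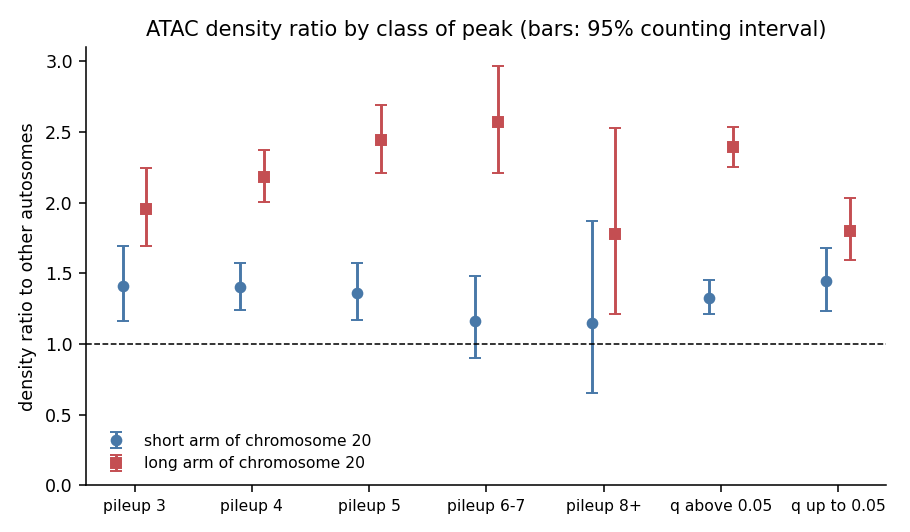
Ratio of ATAC density on each arm to that on other autosomes (vertical axis) for peaks grouped by pileup and by deposited q (horizontal axis), with bars for the 95% counting interval and a dashed line at equal density. Long arm points run from 1.78 to 2.57 and short arm points from 1.15 to 1.45.

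Most members were weak by the authors' own significance values. The list reaches up to a q of 0.497, and 443 peaks of chromosome 20 (21.3%) had a q of at most 0.05. Over all autosomes 23.9% did. The long arm share, 273 peaks or 19.3% (interval 17.2 to 21.4), was lower than the 25.6% of the short arm (22.3 to 29.1) and the 24.04% of other autosomes. Among the 43 sides the long arm ranked 41 in this share. Its density ratio was 1.80 (1.59 to 2.03) for peaks of q up to 0.05 and 2.39 (2.26 to 2.54) for the rest. Short arm ratios were 1.45 (1.24 to 1.68) and 1.33 (1.21 to 1.45). These ratios describe the same peaks by which the chromosome was chosen.

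The named peaks show how height and significance came apart. The highest pileup, 32, belonged to chr20:29832109-29832207, in the first long arm window after the centromere. Its fold enrichment over background was only 1.83, with a q of 0.381. The next, chr20:30181271-30181335, had a pileup of 17, a fold of 4.08 and a q of 0.00579. Of the 5 tallest peaks, all on the long arm, 3 had a q of 0.169 to 0.381. The strongest enrichment was on the short arm, at chr20:25072029-25072126, with a pileup of 8, a fold of 6.82 and a q of 0.000105. The longest peak, chr20:54190347-54190549, spanned 203 bp at a pileup of 5.

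A local background stands behind each fold, and it was higher on the long arm. It can be recovered as the background that turns a pileup into the deposited fold. With it, a Poisson tail gave back the deposited p of 100% of autosomal peaks, to within 0.001 on the −log10 scale. All recovered backgrounds were either at a floor of 0.32 fragments or on regular steps, as whole reads counted around a peak in windows of 55 bp, 1 kb or 10 kb would give. Each read in the 55 bp window added 0.854 to the background, so these reads were counted on a scale. No source used here says which library they came from. If they were shControl reads, as the shared label allows, each fold sets shLOXL2 against shControl. A peak at the floor is thus one around which none of these windows gave a background above that minimum.

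On the long arm only 11.0% of peaks had a background at the floor (interval 9.42 to 12.7), the lowest share of the 43 sides. The short arm had 41.1% (37.3 to 45.0) and other autosomes 36.8%. Median background was 0.451 on the long arm, 0.348 on the short arm and 0.371 elsewhere. The excess stood in the widest window. Backgrounds set by 10 kb made up 46.5% of long arm peaks, 20.5% of short arm peaks and 23.3% of those elsewhere. Within that class the median was 91 reads in 10 kb on the long arm, 84 on the short arm and 86 elsewhere. A peak entered the class only where its 10 kb count set the background, above a floor equal to 68.1 reads. Medians within the class therefore cannot separate the level of this background from how often it applied. Peaks with a 10 kb background were 4.50 times as dense on the long arm as on other autosomes (4.15 to 4.87), while peaks at the floor were 0.672 times as dense (0.571 to 0.787).

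The higher background ran along most of the arm. Shares at the floor were 13.0%, 11.4% and 8.35% in its inner, middle and outer stretches. In 33 of its 34 windows the share was below the 36.8% of other autosomes, the exception being chr20:38000001-39000000 with 57.6%. On the short arm 10 of 27 windows were below it. The lowest shares there were in the first window, with 10.7%, and in the last, with none of 11 peaks, while chr20:16000001-17000000 reached 77.3%. The part of copy number in the density and in the background was not tested.

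Across the genome the denser sides also had fewer peaks at the floor. Spearman's rho between density and share at the floor was −0.747 over the 43 sides, and −0.755 without those of chromosome 20. This describes sides of 1 list, which share a library and a caller. The short side of chromosome 6, second in density, was also second lowest in its share at the floor, with 15.8%. Within chromosome 20 the same rho was −0.617 over 61 windows with a peak, −0.513 on the short arm and −0.200 on the long arm.

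**Figure D4:**
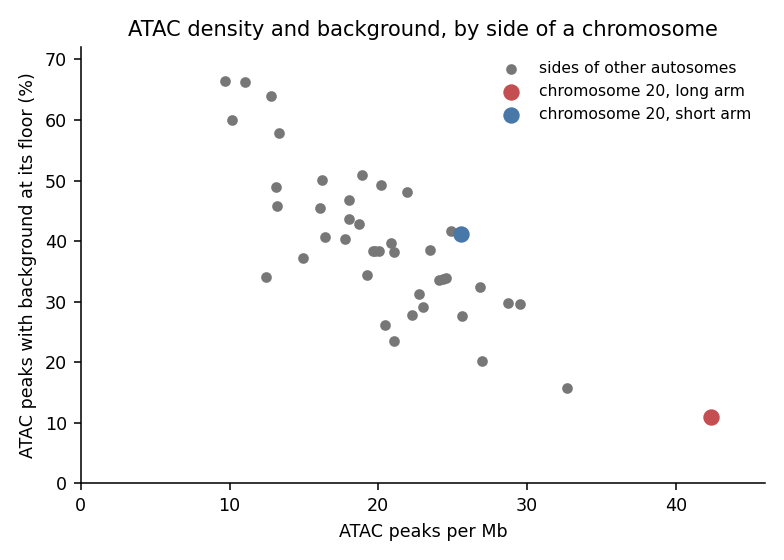
ATAC peaks per Mb (horizontal axis) against the percent of peaks whose background is at its floor (vertical axis) for 43 chromosome sides of at least 10 Mb. The long arm of chromosome 20 stands at the lower right, at 42.4 peaks per Mb and 11.0%, and the short arm among the other sides, at 25.5 peaks per Mb and 41.1%.

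H3K4ox peaks did not share the rise. Chromosome 20 had 401 and 421 H3K4ox peaks in replicates 1 and 2, or 6.40 and 6.72 per Mb, against 8.88 and 9.05 on the other autosomes. The ratio was 0.731 ± 0.0155 (SD, n = 2), and chromosome 20 ranked 17 of 22 in both replicates. The short arm had 219 and 240 peaks, at a ratio of 0.984 ± 0.0507 (SD, n = 2). The long arm had 182 and 181, at 0.605 ± 0.0103 (SD, n = 2). The arm with 2.25 times the ATAC density of other autosomes thus had fewer H3K4ox peaks per Mb than they did, by more than the spread between replicates. This was not particular to chromosome 20. Of the chromosomes next in ATAC density, 19 had 5.02 and 5.36 H3K4ox peaks per Mb and 17 had 4.73 and 4.78, while 14 had 10.1 and 10.2. The long arm itself had 5.44 and 5.41.

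Long arm H3K4ox peaks were also less often shared. Those found in both replicates were 59.3% and 60.2% on the long arm, 86.3% and 80.0% on the short arm and 81.8% and 80.3% elsewhere. Their median score, −10 log10 of the authors' p, was 81.0 and 80.2 on the long arm, against 134.6 and 129.7 on the short arm and 130.6 and 128.9 elsewhere. Median tags per kb of peak were 47.5 and 45.3 on the long arm, 45.4 and 42.8 on the short arm and 43.5 and 41.5 elsewhere. Median fold was 5.93 and 5.79 on the long arm, 6.18 and 6.06 on the short arm and 6.41 and 6.14 elsewhere. Long arm peaks thus had slightly more tags per kb than others at a lower score and a slightly lower fold. They were also shorter, with a median of 2132 and 2360 bp, against 2870 and 2567 on the short arm and 2632 and 2614 elsewhere. The part of length in the score was not tested. The background that enters the score is not named in the sources used here.

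Many of the ATAC-dense windows were nearly empty of H3K4ox peaks. In the window at chr20:55000001-56000000, with 60 ATAC peaks, replicates 1 and 2 had 0 and 1 H3K4ox peaks. At chr20:60000001-61000000, also with 60, they had 0 and 2, and at chr20:46000001-47000000 they had 1 and 1. Windows with at most 2 H3K4ox peaks in both replicates numbered 10 of 61 on chromosome 20, and all 10 were on the long arm. Their median was 51 ATAC peaks, against 38 in the rest of the arm. On other autosomes 7.28% of windows were of this kind, with a median of 23 ATAC peaks against 17. The pattern was not uniform, since chr20:40000001-41000000 held 56 ATAC peaks together with 14 and 10 H3K4ox peaks.

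The highest H3K4ox counts on the long arm were at chr20:53000001-54000000 and chr20:54000001-55000000. Each had 17 and 16 peaks in replicates 1 and 2, with 28 and 32 ATAC peaks. These low ATAC counts lay directly before the densest window of the arm. The 12 densest long arm windows averaged 3.67 and 3.42 H3K4ox peaks in replicates 1 and 2. The middle 11 averaged 5.45 and 5.64, and the sparsest 11, which include the 2 windows above, averaged 7.09 in both. Medians were 1.5 and 2 in the densest, but 5 and 6 in both the middle and the sparsest windows. On the short arm the 9 densest windows averaged most, 10.3 and 10.9. The 9 sparsest averaged 7.44 and 8.78, and the middle 9 averaged least. Over chromosome 20 the middle 20 windows averaged most, 8.05 and 8.45. The densest 21 averaged 4.95 and 4.86, and the sparsest 20 averaged 6.8 and 7.5.

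Over windows with an ATAC peak, Spearman's rho between ATAC and H3K4ox counts was −0.308 and −0.274 on the long arm (34 windows) and 0.334 and 0.265 on the short arm (27 windows). Over all 61 such windows of chromosome 20 it was −0.259 and −0.336, close to the −0.245 and −0.244 of other autosomes. With the 2 empty windows counted it was −0.149 and −0.220, with a mean of −0.184 that moved to −0.0576 in windows of 2 Mb. These are weak relations across windows of the same libraries and are given as descriptions. Between H3K4ox replicates rho was 0.927.

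**Figure D5:**
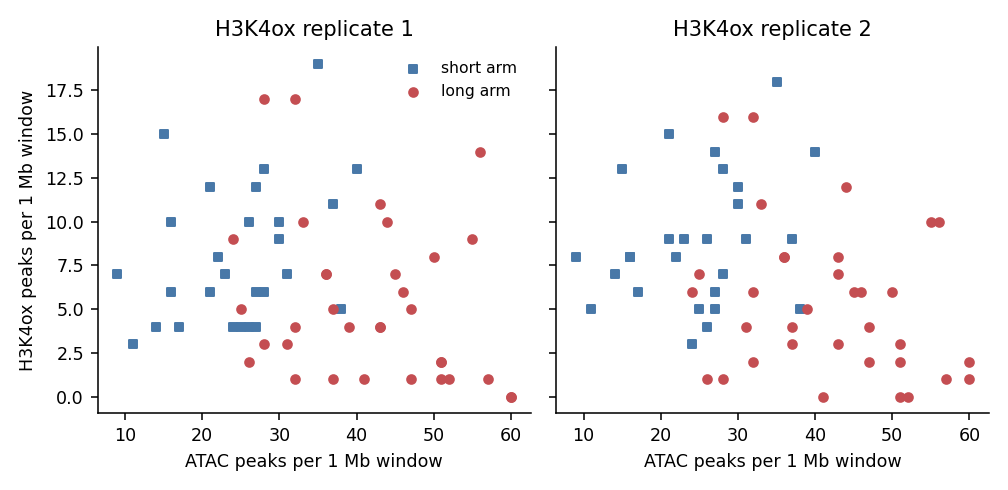
ATAC peaks (horizontal axis) against H3K4ox peaks (vertical axis) in each 1 Mb window of chromosome 20 that touches an arm, for H3K4ox replicate 1 and replicate 2, with short arm windows as blue squares and long arm windows as red circles. Long arm windows at 60 ATAC peaks lie at 0 to 2 H3K4ox peaks, and short arm windows reach 40 ATAC peaks and 19 H3K4ox peaks.

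Few ATAC peaks touched an H3K4ox peak. On chromosome 20, 22 peaks (1.06%, interval 0.663 to 1.60) overlapped one of replicate 1 and 26 (1.25%, 0.817 to 1.82) one of replicate 2, by at least 1 bp. H3K4ox peaks covered 1.91% and 1.996% of the chromosome. Other autosomes had 2.38% and 2.41% of ATAC peaks overlapping, on 2.72% and 2.75% covered. ATAC density inside H3K4ox peaks was 0.547 and 0.621 of that outside on chromosome 20, and 0.871 and 0.875 elsewhere. On the short arm it was 0.436 and 0.516, from 8 and 10 overlapping peaks. On the long arm it was 0.668 and 0.748, from 14 and 16. With H3K4ox peaks of both replicates only, a mean of 0.720% of chromosome 20 ATAC peaks overlapped. Among the 85 ATAC peaks of at least 5-fold enrichment the mean was 0.588%, with an SD of 0.832 over the 2 replicates. That value rests on very few overlapping peaks.

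The H3K4ox peak found in both replicates with the highest replicate 1 score lay in the same window as the tallest ATAC peak. It spanned chr20:29850594-29855547 in replicate 1, with a score of 711 and 306 tags, and had a score of 687.73 in replicate 2. It contained 2 ATAC peaks. This is the first long arm window after the centromere, which had the highest mean pileup of the chromosome, 6.20. That mean is over 25 peaks and includes the tallest peak, of pileup 32. The next by replicate 1 score, chr20:44286824-44294364, with a score of 683.56 and 399 tags in replicate 1, contained no ATAC peak, nor did chr20:33659230-33663831, with 675.04 and 299 tags. The order differed between replicates, since the short arm peak at chr20:14440340-14447459 scored 612.71 in replicate 1 and 871.18 in replicate 2, and it also contained no ATAC peak.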

How the data were processed

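ATAC-seq of MDA-MB-231 cells gave 1 peak list and H3K4ox ChIP-seq 1 list for each of 2 replicates. The submitters' processing notes name Bowtie, Cufflinks and the build GRCh37 but no version, and no source used here names the peak callers. Per the file headers, the deposited ATAC list gives length, pileup (a coverage signal), fold enrichment (a ratio), −log10 p and −log10 q. The deposited H3K4ox lists have no header, and by their layout hold for each peak a tag count, a score (−10 log10 p), a fold ratio and a false discovery rate in percent, all the authors' values. No source used here says whether ATAC reads were offset for the transposase.

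The members and the descriptions were chosen with earlier results of these data known. Peaks of the 22 autosomes were assigned to 1 Mb windows by their midpoint, with coordinates 1-based. Spans run from first to last peak, and assembly gaps were not masked. Background was computed as (pileup + 1) / fold − 1, and a value within 0.0002 of a step counted as on it. Since steps nest, the narrowest window was assigned first. Named regions were those leading in peaks per window, pileup, length, fold or H3K4ox score. Other thresholds, windows, spans, merging of neighbours and single replicates were tried, and peaks of q up to 0.05 were added after the data were seen. Counting functions were tested on simulated peaks. Python 3.11.15, numpy 2.4.6, pandas 2.3.3, scipy 1.17.1 and matplotlib 3.10.9 were used. The RNA table and RefSeq tables of another build were not used.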

Additional observations from a re-analysis of the deposited data

How the results depend on the processing

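Of 58 alternatives, 40 left a value within its counting interval or replicate spread and 18 moved it further. None turned a direction, but percentages and the pileup and length ratios, which were 1, could not turn by the rule used. A single H3K4ox replicate lies within the spread of both by construction. With only ATAC peaks of at least 5-fold enrichment, the density ratio was 1.61 for chromosome 20 and 1.92 for the long arm. The ratio of median peaks per window was 1 (1 peak in each), and the densest 10% of windows held 32.9% of peaks. The length ratio was 1.09, and 0.588% of the 85 peaks overlapped H3K4ox (mean of replicates, SD 0.832). With q up to 0.05, an alternative chosen after seeing the data, the same 6 values other than the window ratio, which stayed within its interval at 1.75, were 1.56, 1.80, 21.4%, 1.07 and 0.903%. Without the densest 10% of windows the short arm ratio was 1.54, as those windows of chromosome 20 lie on the long arm. With H3K4ox scores of at least 100 the H3K4ox ratio was 0.639, the overlap 0.648% and rho −0.317, and with H3K4ox peaks of both replicates the overlap was 0.720%. The Spearman correlation over all windows, a mean of −0.184 over replicates, was −0.0576 in windows of 2 Mb and −0.298 in windows with a peak. Leaving out an H3K4ox replicate gave ratios of 0.720 and 0.742, overlaps of 1.06% and 1.25% and rho of −0.149 and −0.220. A −log10 q of at least 10 left 0 peaks on chromosome 20 and 1 on all autosomes, so no value was given. No paired analysis was possible because no test was made. The unknown depth of the ATAC library and its single list limit every density given.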
